A study of Rattus norvegicus with 21 samples.

Results

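The distal ends of the 20 rat autosomes were taken as 250 bp tiles of the rn5 genome that start within 5000000 bp of the largest base listed for their chromosome in any library. A tile had to hold at least 2 CpGs (cytosine followed by guanine) in each of 21 bisulfite libraries. A cytosine needed at least 10 reads, counted before the 2 strands of a CpG were merged. Of 140054 autosomal tiles that met this, 7704 lay at the distal ends and the other 132350 served as reference. The distal tiles were 5.50% of the tiles on 3.64% of the autosomal length. The rule for tiles uses position and coverage only, and no methylation value, but it was set with earlier results of these data known.

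The libraries were made from dorsal striatum of 120-day-old wild type Sprague Dawley rats. 6 were unlesioned and saline-treated, 8 were lesioned and saline-treated, and 7 were lesioned and given L-DOPA, the precursor of dopamine. Per the labels' protocols, the lesion was made with 6-OHDA (6-hydroxydopamine), which kills catecholamine neurons, in the left medial forebrain bundle, which carries dopamine fibres to the striatum. After 3 weeks, L-DOPA was injected daily at 6 mg/kg for 7 days, a schedule that causes dyskinesia (involuntary movements), and striatum was dissected 3 h after the last dose. The labels number the samples of a group without naming animals, so a p-value here rests on the spread between samples, which may be technical, and the labels do not say which animals or hemisphere gave the unlesioned tissue.

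Chromosomes end in telomere repeats, next to which lie subtelomeric regions that are rich in repeats and in duplicated sequence shared between chromosomes. On many mammalian chromosomes the gene-rich and CpG-rich bands also lie toward the ends. In brain as in other tissues most isolated CpGs are methylated, while stretches dense in CpGs (CpG islands, often at promoters) are mostly unmethylated. By convention the largest coordinate of a chromosome marks the tip of its long arm. The largest listed base is the last CpG that was mapped and covered, not the physical end, and a gene annotation of rn5 was not used here, so no tile is assigned to a gene.

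Libraries held 978694 to 1291334 CpGs, with a median coverage of 37 to 70 reads per cytosine. Reads per distal tile had a median of 154 in the shallowest library (lesioned saline replicate 3) and 422 in the deepest (unlesioned saline replicate 6), summed over the CpGs of a tile, so that 1 read can count at several CpGs. In 3 libraries reads were concentrated in CpG-dense tiles. In L-DOPA replicates 3 and 7 and unlesioned saline replicate 1, tiles of 15 or more CpGs had 22.1 to 24.1 times the median reads of tiles with 2 or 3 CpGs, against 10.6 to 18 times in the other 18 libraries. Their distal mean methylation was 40.6% to 41.5%, below the 43.1% to 47.1% of the other 18. The reference tiles, weighted to the same numbers of CpGs, were also lower there, at 41.0% to 41.6% against 43.2% to 46.9%. Where a result was also run without these 3 libraries and its call, direction or size (by over 1.5 times) changed, that value is given too.

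The cutoff of 5000000 bp fell inside a CpG-dense stretch of chromosome 17. The tile just inside it, chr17:87463751-87464000, held 23 CpGs at a mean level of 1.31%, and the adjoining tile just outside, chr17:87463501-87463750, held 19 CpGs at 1.80%. Before the demand for all 21 libraries, 15279 distal tiles had 2 CpGs in some library, and 50.4% of them remained, against 47.8% of 276709 tiles elsewhere.

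Over the 5 Mb window distal ends held 77.04 measured tiles per Mb against 49.99 in the rest of the autosomes, a ratio of 1.54. The last 2 Mb were not denser, with 47.9 against 51.0 tiles per Mb, a ratio of 0.938. The 20 ends differed widely. Density was highest at the end of chromosome 5, with 199.6 tiles per Mb and 3.72 times the rest of that chromosome. It was lowest at the end of chromosome 18, with 10.2 tiles per Mb, and relative to its own chromosome at the end of chromosome 20, with a ratio of 0.175. The end was denser than the rest on 12 of the 20 chromosomes. Density here counts where CpGs and reads coincide, and the libraries share the same tiles, so these values carry no test.

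With the settings used throughout, mean methylation over the distal tiles differed from that of CpG-matched tiles by less than the spread between libraries, and other settings gave differences in either direction. The level of a tile is the share of its reads that show an unconverted C. The reference was weighted to the same numbers of distinct CpGs per tile, and every distal tile had a match. Distal tiles averaged 44.9% ± 1.80 (SD, n = 21) and the matched reference 44.9% ± 1.67. The difference within a library was 0.0383 ± 0.143 percentage points, with distal tiles higher in 15 of 21 libraries (sign-flip permutation test over libraries, adjusted p = 0.307 over 5 measures). Without the 3 libraries with concentrated reads it was 0.0815 points (adjusted p = 0.000537), and without L-DOPA replicate 7 alone 0.0626 points (adjusted p = 0.0101). Because all libraries measure the same tiles of 1 genome, this test asks whether a difference repeats across libraries and does not treat chromosome ends as replicates. The smallest p its 100000 resamples can give is 1e-05. At 20 reads per cytosine the difference was 0.548 points (permutation adjusted p = 1.25e-05). With tiles of 1000 bp it was -0.153 points and without matching -0.779 points (both adjusted p = 2.5e-05). The direction also followed the window, with -6.26 points for the last 2 Mb (adjusted p = 1.67e-05) and 3.40 points for the last 10 Mb (adjusted p = 1e-05).

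Behind the near-equal means the levels were distributed differently. Tiles of low and of high level were both rarer at distal ends, and tiles of intermediate level were more common. By the mean over 21 libraries, 39.0% of distal tiles were under 20% methylated, against 40.3% of the matched reference. Another 32.2% lay between 20% and 80%, against 29.1%. The remaining 28.8% were over 80% methylated, against 30.6%. Counted library by library, distal minus reference was -1.28 ± 0.133 points for the share under 20% and -1.76 ± 0.269 points for that over 80%, each below 0 in all 21 libraries (SD, permutation, both adjusted p = 1.67e-05). The first was 6.76 points with a window of 2 Mb and the second 1.504 points with a window of 10 Mb.

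CpG number separated the distal tiles into classes that departed from the reference in different directions. Tiles of 2 or 3 CpGs, 2976 of the members, averaged 60.5% ± 2.46 (SD, n = 21) against 61.4% in the reference, and were lower in all 21 libraries. The 2684 tiles of 4 to 7 CpGs averaged 50.7% ± 2.07 against 51.3%, also lower in all 21. The 1145 tiles of 8 to 14 CpGs went the other way, at 23.6% ± 0.860 against 19.5%, and were higher in all 21 libraries by 4.09 ± 0.239 points. These 3 differences each had a permutation adjusted p of 1.33e-05 over 4 classes. The 899 tiles with 15 or more CpGs, the densest class, averaged 3.35% in both sets and did not differ beyond the spread (difference -0.0067 points, permutation adjusted p = 0.524).

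The higher level at 8 to 14 CpGs was unevenly spread over the ends. The matched difference was positive at 10 ends and negative at 10. It reached 16.8 points over 111 tiles on chromosome 12, 16.3 over 13 on chromosome 16, 14.7 over 178 on chromosome 5 and 9.96 over 49 on chromosome 19. Its lowest values were -17.8 over 7 tiles on chromosome 2, -14.4 over 9 on chromosome 20 and -12.1 over 4 on chromosome 18, and it was -6.13 over 31 on chromosome 6. Leaving out chromosome 5 lowered the difference over all ends to 2.14 points. In this class tiles between 20% and 80% made up 16.9%, against 11.6% in the reference, and those under 20% made up 69.4% against 75.9%. In the groups the difference was 4.14 ± 0.284 points (SD, n = 6) in unlesioned, 4.13 ± 0.0873 (n = 8) in lesioned saline and 4.01 ± 0.320 (n = 7) in L-DOPA libraries.

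Within the 5 Mb, methylation rose with distance from the end, and the average hid opposite departures. In the last Mb, 785 tiles averaged 31.5% ± 0.926 (SD, n = 21) against 39.9% in the CpG-matched reference, a difference of -8.39 ± 0.576 points. Between 1 and 2 Mb from the end, 1130 tiles averaged 41.0% ± 2.04 against 45.6%, a difference of -4.61 ± 0.483 points. Both were lower than the reference in all 21 libraries.

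Between 2 and 3 Mb, 1843 tiles sat at the reference, with 43.2% ± 1.61 against 43.1%. The next 1778 tiles, from 3 to 4 Mb, averaged 48.8% ± 2.07 and were 2.60 ± 0.366 points above it. The innermost bin of the window, 4 to 5 Mb with 2168 tiles, averaged 50.2% ± 1.95 and was 3.42 ± 0.230 points above. The sign-flip permutation test gave an adjusted p of 1.25e-05 over 5 bins in each of these, except 0.205 for 2 to 3 Mb. The tiles also thinned toward the end, from 108.4 per Mb at 4 to 5 Mb to 39.25 per Mb in the last Mb.

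**Figure D1:**
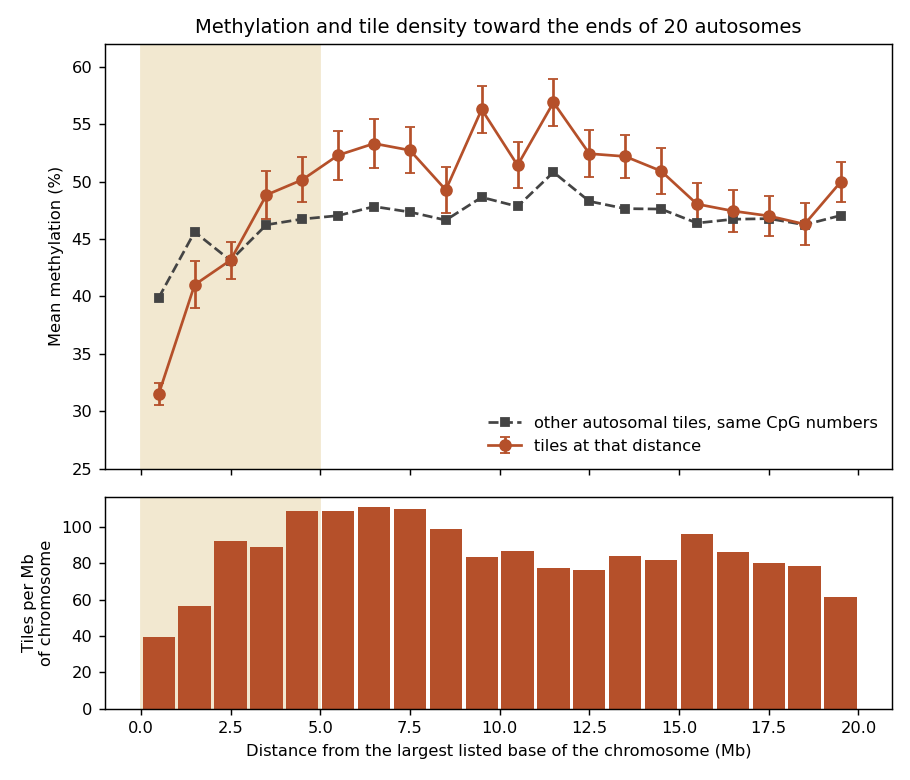
Mean methylation (upper panel, points with SD over 21 libraries) and tiles per Mb of chromosome (lower panel) by distance in Mb from the largest listed base, with the level of tiles of the same CpG numbers outside the 5 Mb windows as squares. In the shaded 5 Mb the level goes from 31.5% in the last Mb to 50.2% at 4 to 5 Mb, crossing the reference at 2 to 3 Mb.

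The low level of the last Mb was spread over most chromosomes, whereas that between 1 and 2 Mb leaned on chromosome 7. In the last Mb, 16 of 20 chromosomes lay below their reference. Without chromosome 5, which has the most tiles there (156), the difference was -8.18 points. Among the 13 chromosomes with at least 20 tiles in the last Mb, 12 lay below, the median difference was -12.5 points, and the range ran from -30.1 points on chromosome 9 to 7.32 points on chromosome 3. Between 1 and 2 Mb, 14 of 20 lay below, but leaving out chromosome 7 with its 217 tiles brought the difference to -0.827 points. The bins above the reference did not rest on their largest chromosome, at 3.11 points from 3 to 4 Mb without chromosome 7 and 2.93 points from 4 to 5 Mb without chromosome 12.

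Tiles of intermediate CpG number departed most from the reference with distance. In the last Mb, the 258 tiles of 4 to 7 CpGs averaged 32.6% ± 1.01 (SD, n = 21) against 50.7% in the reference, a difference of -18.1 points. Tiles of 8 to 14 CpGs differed there by -6.54 points and tiles of 2 or 3 CpGs by -4.15 points. The 134 tiles of 15 or more CpGs averaged 4.09% and differed by 0.632 points. At 4 to 5 Mb the same 4 to 7 CpG class was 5.34 points above the reference and the 8 to 14 class 10.6 points above, while tiles of 2 or 3 CpGs, at 61.4%, matched it to 0.0319 points.

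**Figure D2:**
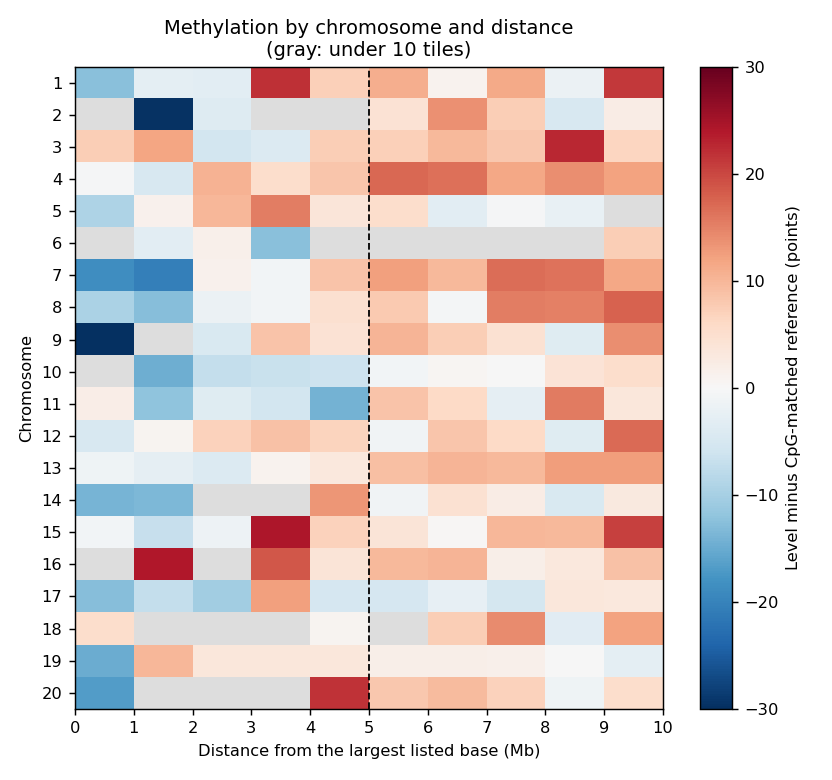
Level minus the CpG-matched reference, in percentage points, for each chromosome (rows) and each Mb of distance from the largest listed base (columns), as the mean over 21 libraries, with blue below and red above the reference and the dashed line at 5 Mb. In the last Mb 16 of 20 chromosomes lie below the reference (counting those drawn gray for few tiles), and chromosome 7 is at -20.5 points between 1 and 2 Mb.

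The 20 ends differed widely in mean methylation. The highest levels over the whole 5 Mb were at the ends of chromosome 16, with 60.1% ± 2.39 (SD, n = 21) over 116 tiles, chromosome 4, with 55.7% ± 1.63 over 379 tiles, and chromosome 18, with 51.7% ± 1.43 over 51 tiles. The lowest were at the ends of chromosome 14, with 31.4% ± 1.05 over 94 tiles, chromosome 11, with 32.3% ± 1.26 over 387 tiles, and chromosome 10, with 34.5% ± 1.64 over 710 tiles. The last 3 had more CpGs per tile, at 8.95, 8.66 and 7.68, than the first 3, at 5.16, 5.54 and 5.98.

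Matching for CpG number left part of this order. Chromosome 16 was 9.50 ± 0.820 points above its matched reference and chromosome 4 was 5.98 ± 0.383 points above. Chromosomes 10, 11 and 14 were below theirs, with differences of -7.11, -5.67 and -5.17 points. Of the 20 ends, 10 were above and 10 below. With the reference taken from the same chromosome 19 of 20 kept their sign, chromosome 13 being the exception, and the mean of the 20 differences was -0.0962 points with the reference from all autosomes.

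**Figure D3:**
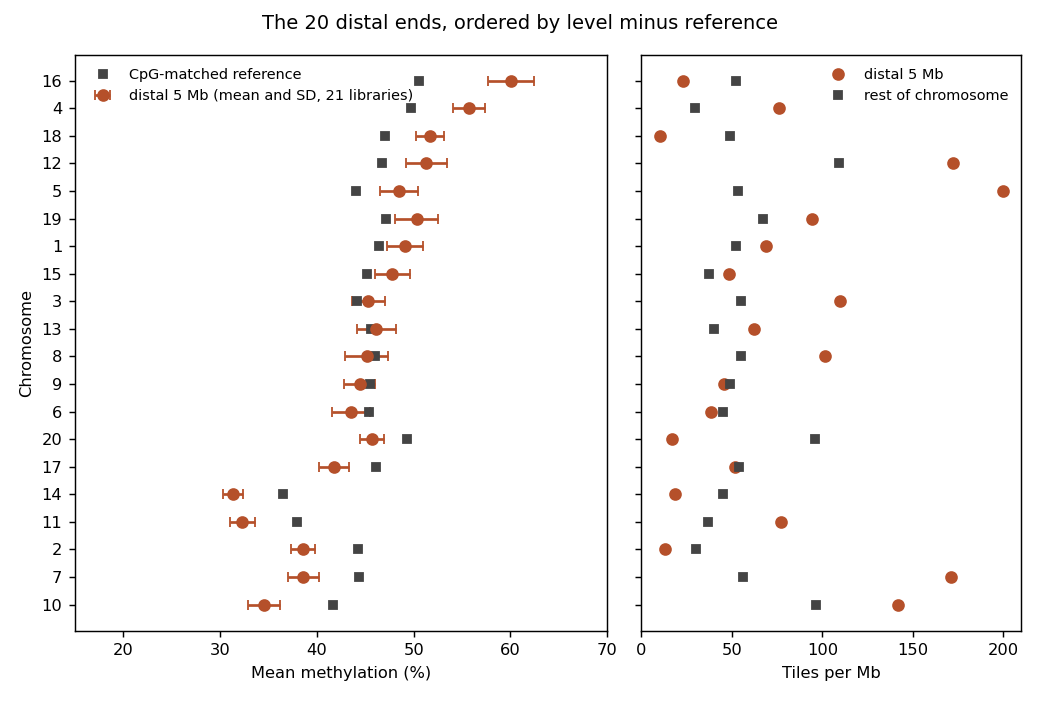
Left, mean methylation in percent of the distal 5 Mb of each chromosome (circles, SD over 21 libraries) and of its CpG-matched reference (squares), ordered by their difference; right, tiles per Mb in the distal 5 Mb and in the rest of the chromosome. Chromosome 16 lies highest above its reference (9.50 points) and chromosome 10 farthest below (-7.11 points), with 10 ends on each side.

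The last measured tile of a chromosome was methylated at some ends and unmethylated at others. These 20 tiles lay between 75 and 259305 bp from the largest listed base, with a median of 317.5 bp. Of them 11 were under 20% methylated, 5 over 80% and 4 between. The nearest, chr15:114571501-114571750 with 5 CpGs, started 75 bp from it and was nearly unmethylated, with a lowest, median and highest level of 1.10%, 2.31% and 3.29% in unlesioned, 1.25%, 2.29% and 3.66% in lesioned saline and 1.00%, 1.89% and 2.45% in L-DOPA libraries. Its counterpart on chromosome 11, chr11:93515251-93515500 with 8 CpGs and 90 bp from the end, was highly methylated, at a mean of 86.3%.

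The last tile of chromosome 16, chr16:90047751-90048000 with 7 CpGs and 80 bp from the end, was intermediate and varied between libraries of a group. It ran from 27.0% to 66.2% (median 40.2%) in unlesioned, from 33.9% to 61.6% (median 44.5%) in lesioned saline and from 40.9% to 59.9% (median 48.7%) in L-DOPA libraries, at a median of 628 reads, so the 3 groups overlapped.

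The longest unbroken stretches of measured tiles at distal ends had low mean methylation. Of distal tiles, 47.2% had no measured neighbour, against 49.6% elsewhere. The longest runs were 10 adjoining tiles, chr6:155694251-155696750 with 148 CpGs at 3.40% ± 0.560 (SD, n = 21) and chr12:52991001-52993500 with 181 CpGs at 2.23% ± 0.347. The next, chr5:175499751-175502000 with 9 tiles and 148 CpGs, averaged 11.1% ± 1.09, and its tiles ranged from 1.41% to 47.9%.

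A few CpG-dense tiles were methylated. The tiles with most CpGs in the lowest level class were chr19:70175001-70175250 with 48 CpGs at 1.02%, chr10:110055501-110055750 with 45 at 1.08% and chr19:67900251-67900500 with 45 at 1.30%. At intermediate level they were chr7:140497251-140497500 with 35 CpGs at 24.0%, chr3:179864501-179864750 with 21 at 40.6% and chr4:246879751-246880000 with 20 at 52.0%. Over 80% the densest were chr5:174850501-174850750 with 17 CpGs at 80.02%, chr15:114554001-114554250 with 16 at 82.6%, 17575 bp from the end, and chr5:173118501-173118750 with 15 at 88.9%. The last of these had a median of 1436 reads and a within-group SD of 1.80 points.

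Libraries of a group differed from each other at distal tiles about as much as elsewhere. The within-group SD of a tile averaged 4.55 points at distal ends and 4.54 in the matched reference, and its median was 3.64 against 3.57 points. Matched for CpG number and level, the mean deviation of a library from the other libraries of its group was 0.0111 ± 0.0688 points larger at distal tiles (higher in 16 of 21 libraries, permutation adjusted p = 0.466). Without the 3 libraries with concentrated reads it was 0.0349 points larger (adjusted p = 0.00358). By level, the median SD was 1.07 points for distal tiles under 20%, 8.06 between 20% and 80% and 3.61 over 80%, against 1.02, 8.08 and 3.56 in the reference.

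Depth at distal tiles was slightly lower than at matched tiles, with a difference of -0.0448 ± 0.0158 (SD, n = 21) on the log2 scale of reads per tile, below 0 in all 21 libraries (permutation adjusted p = 1.67e-05). In the last Mb it was not, at 0.0381 ± 0.0450 above the reference. The 3 distal tiles with the largest within-group SD had few CpGs. These were chr19:71254251-71254500 with 2 CpGs, a median of 48 reads and an SD of 24.0 points, chr8:128512751-128513000 with 4 CpGs, 185 reads and 23.4 points, and chr11:91236001-91236250 with 3 CpGs, 86 reads and 22.1 points. Single libraries of the first ranged from 6.25% to 80.8% within the L-DOPA group.

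The next comparisons ask whether the lesion, L-DOPA after the lesion, or both moved methylation at the ends. Distal mean methylation did not differ between groups beyond the spread of their libraries. Unlesioned libraries averaged 45.4% ± 2.10 (SD, n = 6), with a lowest, median and highest value of 41.5%, 45.9% and 47.1%. Lesioned saline libraries averaged 45.1% ± 0.921 (n = 8), with 43.1%, 45.4% and 46.2%. L-DOPA libraries averaged 44.4% ± 2.35 (n = 7), with 40.6%, 45.4% and 46.3%. The ranges overlapped, and the lowest value in the unlesioned and the 2 lowest in the L-DOPA group were the libraries with concentrated reads.

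L-DOPA minus lesioned saline was -0.757 points (SE 0.945, exact permutation test, adjusted p = 0.628 over 3 comparisons). Lesioned minus unlesioned saline was -0.223 points (SE 0.917, exact permutation adjusted p = 0.799), and L-DOPA minus unlesioned saline was -0.980 points (SE 1.23, exact permutation adjusted p = 0.628). The 3 comparisons share their libraries pairwise and are not independent. Without the 3 libraries L-DOPA minus lesioned saline turned to 0.595 points, lesioned minus unlesioned saline was -0.995 points and L-DOPA minus unlesioned saline was -0.400 points (exact permutation adjusted p = 0.317, 0.291 and 0.437).

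The libraries carry numbers from 2 separate ranges, called series 1 and series 2. No source used here says what the ranges mean, and all 6 unlesioned libraries are in series 2. L-DOPA minus lesioned saline was -0.467 points in series 1 (n = 3 and 6, exact permutation p = 0.774) and -1.28 points in series 2 (n = 4 and 2, exact permutation p = 0.667). Lesioned minus unlesioned saline was 0.184 points in series 2 (n = 2 and 6, exact permutation p = 0.893), and L-DOPA minus unlesioned saline -1.10 points (n = 4 and 6, exact permutation p = 0.481). The direction of the lesion difference thus changed within series 2. The 6 unlesioned libraries there include unlesioned saline replicate 1 (41.5%), which has concentrated reads. L-DOPA replicates 3 (41.4%, series 1) and 7 (40.6%, series 2) have them too. Differences within a series were not run without these 3 libraries, and whether their direction rests on them was not tested.

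Group differences at distal ends did not depart from those at the matched reference beyond the spread of the libraries. Taking each library's distal minus reference level, L-DOPA minus lesioned saline was -0.0483 points (SE 0.0854, exact permutation adjusted p = 0.664). Lesioned minus unlesioned saline was -0.0465 points (SE 0.0531, adjusted p = 0.607 by the same exact test) and L-DOPA minus unlesioned saline -0.0948 points (SE 0.0942, adjusted p = 0.607, exact). Within series 1 the first was 0.0100 points and within series 2 -0.0647 points. In series 2, the lesion difference was -0.0830 points and that of L-DOPA against unlesioned -0.148 points. L-DOPA replicate 7, at -0.448 points, stood below all other libraries, which ranged from -0.110 to 0.216 points. Without the 3 libraries with concentrated reads the 3 differences relative to the reference were 0.0604, -0.0853 and -0.0248 points in the order above (exact permutation adjusted p = 0.224, 0.2 and 0.579).

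**Figure D4:**
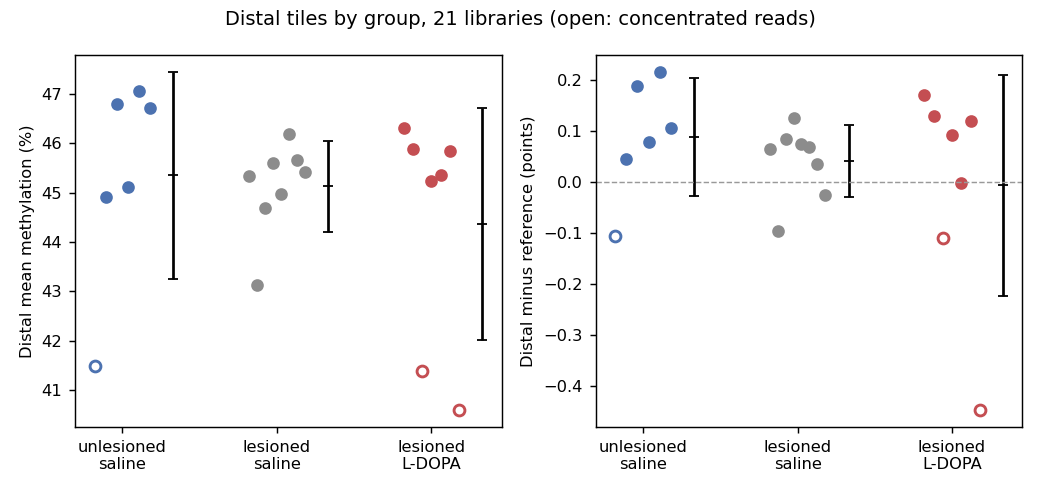
Distal mean methylation in percent (left) and distal minus CpG-matched reference in percentage points (right) for each of 21 libraries by group, with mean and SD at the right of each group and open circles for the 3 libraries with concentrated reads. The open circles lie at 40.6% to 41.5% on the left, below the other 18 libraries, and the groups overlap on both sides.

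The rise of methylation with distance from the end was present in each group. In the last Mb, unlesioned libraries averaged 31.6% ± 1.19 (SD, n = 6), lesioned saline 31.5% ± 0.468 (n = 8) and L-DOPA 31.3% ± 1.17 (n = 7). At 4 to 5 Mb they averaged 50.6% ± 2.28, 50.4% ± 0.934 and 49.5% ± 2.56. None of the 15 tests of 3 comparisons in 5 bins passed. The smallest adjusted p was 0.872 for the level and 0.778 for the level minus reference (exact permutation tests).

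Among single chromosome ends, none differed in level between groups (60 exact permutation tests, smallest adjusted p = 0.865). Relative to the reference 2 ends did, both in lesioned against unlesioned saline. At the end of chromosome 1, over 343 tiles, the excess over the reference was 2.91, 3.02 and 3.39 points in unlesioned libraries (lowest, median, highest) and 2.11, 2.59 and 2.90 points in lesioned saline ones, so the groups did not overlap. The difference was -0.517 points (exact permutation p = 0.000999, adjusted p = 0.04 over 60). L-DOPA libraries ranged from 2.10 to 3.08 points with a median of 2.73.

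At the end of chromosome 15, over 241 tiles, the excess was 2.58, 2.98 and 3.40 points in unlesioned and 2.34, 2.47 and 2.70 points in lesioned saline libraries, a difference of -0.470 points (exact permutation p = 0.00133, adjusted p = 0.04). L-DOPA libraries, which are lesioned too, ranged there from 2.24 to 3.28 points with a median of 2.67 and overlapped both groups. Neither call held throughout. With the reference from the same chromosome both had an adjusted p of 0.16. In series 2 alone, with 2 lesioned saline libraries, the differences were -0.324 and -0.343 points (adjusted p = 0.963, exact). An exact test of 2 against 6 libraries has few arrangements and could hardly pass over 60 tests, so it cannot decide. Both calls were lost on leaving out any 1 of 12 of the 14 libraries compared. The exceptions were unlesioned saline replicate 1 and lesioned saline replicate 8. The adjusted p was up to 0.117, without unlesioned saline replicate 4 (exact permutation). In the fits that lost the calls, the unadjusted exact permutation p was 0.00117 to 0.00389 for chromosome 1. For chromosome 15 it was 0.00175 to 0.00311. With 1 library fewer the exact test has fewer arrangements, and an end passes over 60 tests only at or near its smallest p. The loss therefore cannot decide whether the calls rest on single libraries. The differences kept their sign on leaving out 1 library, at -0.565 to -0.453 points for chromosome 1 and -0.547 to -0.383 points for chromosome 15.

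Tile by tile, no distal tile passed in any comparison. The test was a quasi-binomial logistic model on methylated and unmethylated reads with Benjamini-Hochberg adjustment over 180953 tiles of the genome. It covered 7531 distal tiles, since 172 had a pooled level under 1% and 1 over 99%. It called 0 distal tiles in each comparison, where the share called among all tiles was also 0%, and limma on log2 odds called 0 as well. At an unadjusted p under 0.05, L-DOPA against lesioned saline had 314 distal tiles (4.17%, against 3.83% of all tiles). Lesioned against unlesioned saline had 307 (4.08%, against 3.42%) and L-DOPA against unlesioned saline 496 (6.59%, against 6.25%). By limma the counts were 260 (3.45%, against 4.01% of all tiles), 280 (3.72%, against 3.69%) and 363 (4.82%, against 5.02%). The distal share was thus above that of all tiles in each comparison by the first test and in 1 of 3 by limma. All tiles needed only 5 libraries per group, whereas distal ones were in all 21. Among the 139031 tiles in all 21 libraries, the first test gave distal shares of 3.88%, 3.84% and 6.37%, against 3.76%, 3.26% and 6.17%.

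The distal shares at unadjusted p were close to those of all tiles in both directions. For L-DOPA against lesioned saline 186 were lower and 128 higher (2.47% and 1.70%, against 2.3% and 1.53% of all tiles). For lesioned against unlesioned saline 198 were lower and 109 higher (2.63% and 1.45%, against 2.22% and 1.2%). For L-DOPA against unlesioned saline 357 were lower and 139 higher (4.74% and 1.85%, against 4.62% and 1.63%). The median difference over distal tiles was -0.24, -0.07 and -0.32 points in these comparisons, against -0.26, -0.06 and -0.30 points over all tested tiles. The mean difference over the tested distal tiles was -0.772, -0.229 and -1.0017 points in the same order. Without the 3 libraries with concentrated reads this mean was 0.612, -1.019 and -0.408 points. The mean difference of L-DOPA against lesioned saline thus changed direction without them.

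The distal tile with the smallest p was on chromosome 6, 2.84 Mb from the end, and lower with L-DOPA than in unlesioned striatum. chr6:154036751-154037000, with 7 CpGs and a median of 190 reads, had a lowest, median and highest level of 78.5%, 80.1% and 81.9% in unlesioned, 62.6%, 73.3% and 83.7% in lesioned saline and 57.1%, 63.9% and 73.1% in L-DOPA libraries. Unlesioned and L-DOPA libraries did not overlap, and lesioned saline libraries lay across both. The difference was -15.3 points (SE 1.84, quasi-binomial adjusted p = 0.103) and did not pass. Of its 7 CpGs, 3 were covered in all 21 libraries and the other 4 in 20 libraries, at medians near 20 reads. The difference was largest at the CpG at position 154036889, with a mean of 83.9% ± 8.57 (SD, n = 6) in unlesioned and 50.0% ± 14.2 (n = 7) in L-DOPA libraries, and of the 3 CpGs in all 21 libraries 2 had a lower L-DOPA mean.

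The tile with the smallest p for L-DOPA against lesioned saline lay 8000 bp nearer the same end, in chr6:154044751-154045000 with 3 CpGs and a median of 90 reads. Its levels were 58.3%, 70.6% and 73.9% in unlesioned, 59.8%, 70.8% and 83.3% in lesioned saline and 38.4%, 48.5% and 74.5% in L-DOPA libraries (lowest, median, highest), so 1 L-DOPA library overlapped. L-DOPA minus lesioned saline was -19.7 points (SE 5.47, quasi-binomial adjusted p = 1.0). The only measured tile between them, chr6:154041001-154041250 with 3 CpGs, averaged 64.4% ± 16.2 (SD, n = 6) in unlesioned, 58.8% ± 16.1 (n = 8) in lesioned saline and 51.2% ± 18.4 (n = 7) in L-DOPA libraries. Of the 3 other measured tiles within 20 kb, chr6:154041001-154041250, between the pair, had a lower L-DOPA mean than both saline groups (51.2%). The other two, chr6:154050001-154050250 and chr6:154059251-154059500, had higher ones (55.9% and 89.7%). The pair was chosen for its differences, and the neighbours were looked at after its values were seen.

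The other 2 tiles named for a lower level in L-DOPA than in unlesioned libraries also had lower means in lesioned saline libraries, and no comparison at them passed (quasi-binomial adjusted p = 1.0 for lesioned against unlesioned saline at both). chr1:285846001-285846250 held 6 CpGs, of which 4 were covered in all 21 libraries. Its medians were 51.4% in unlesioned (40.8% to 68.6%), 40.4% in lesioned saline (35.0% to 47.5%) and 36.0% in L-DOPA libraries (19.5% to 46.1%). L-DOPA minus unlesioned was -19.3 points (SE 5.58, quasi-binomial adjusted p = 0.466), with overlapping groups. chr3:182724251-182724500, with 5 CpGs and 0.995 Mb from the end, had medians of 89.0% in unlesioned (86.7% to 91.8%), 82.6% in lesioned saline (71.0% to 86.1%) and 78.3% in L-DOPA libraries (64.7% to 89.2%). Here the lesioned saline libraries lay wholly below the unlesioned ones, and the L-DOPA libraries overlapped both. Of the 5 CpGs only 2 were covered in all 21 libraries, and the shallowest library had 22 reads at this tile. L-DOPA minus unlesioned was -10.7 points (SE 2.87, quasi-binomial adjusted p = 0.466).

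Higher levels with L-DOPA than in unlesioned tissue were smaller. chr19:70964751-70965000, with 4 CpGs, averaged 89.6% ± 2.68 (SD, n = 7) with L-DOPA and 82.9% ± 4.34 (n = 6) in unlesioned libraries, with lesioned saline at 88.2% ± 3.46 (n = 8). chr8:132062001-132062250 and chr17:87782001-87782250, of 16 and 12 CpGs (12 and 10 of them in all 21 libraries), were nearly unmethylated and differed by 0.722 and 0.912 points. The smallest quasi-binomial adjusted p among these 3 was 0.712.

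Among the 6 tiles with the smallest p in lesioned against unlesioned saline, the largest difference in points was at chr7:140229501-140229750, with 2 CpGs and a median of 124 reads. Its levels were 29.4%, 34.1% and 39.8% in unlesioned, 19.4%, 24.7% and 30.2% in lesioned saline and 21.8%, 24.4% and 31.7% in L-DOPA libraries. The unlesioned and lesioned ranges overlapped only slightly, and the difference was -9.72 points (SE 2.17, quasi-binomial adjusted p = 1.0). The other 5 of these tiles lay under 4% in every group mean. Of these, chr5:176082001-176082250 and chr14:113319251-113319500 were lower in lesioned saline libraries, with differences of -3.01 and -0.953 points. At the chromosome 5 tile the ranges did not overlap, at 1.55% to 5.93% in unlesioned and 0% to 0.995% in lesioned saline libraries. L-DOPA libraries there ranged from 0% to 4.25%, and the tile did not pass. chr12:51103501-51103750, chr11:89997251-89997500 and chr11:91175001-91175250 were higher by 0.949, 0.980 and 1.24 points.

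Of the remaining tiles with the smallest p for L-DOPA against lesioned saline, 2 were lower with L-DOPA. chr8:129239501-129239750, with 5 CpGs, averaged 4.98% ± 2.62 (SD, n = 7) with L-DOPA, 13.1% ± 4.59 (n = 8) in lesioned saline and 7.52% ± 4.46 (n = 6) in unlesioned libraries. chr17:88907751-88908000, with 2 CpGs, averaged 6.46% ± 3.06 with L-DOPA, 13.2% ± 3.66 in lesioned saline and 13.7% ± 3.97 in unlesioned libraries. The 3 with a higher L-DOPA level, chr15:112296751-112297000, chr12:49887001-49887250 and chr13:114643501-114643750, were CpG-dense and nearly unmethylated, with differences of 0.844, 1.46 and 0.650 points. All 5 had a quasi-binomial adjusted p of 1.0.

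**Figure D5:**
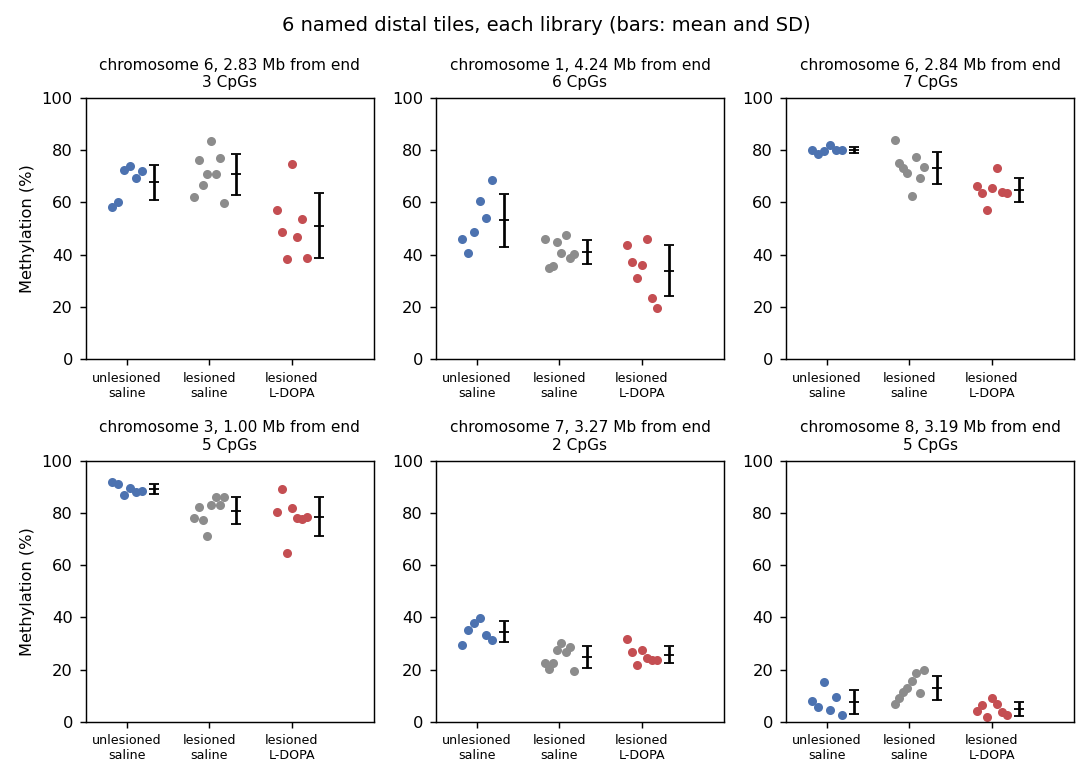
Methylation in percent of the 6 named distal tiles with the largest difference in their comparison, in each of 21 libraries by group, with mean and SD, each panel titled by chromosome, distance from the largest listed base and number of CpGs. None passed the adjusted threshold. In the panel of chromosome 6 with 7 CpGs, unlesioned and L-DOPA libraries lie apart, at 78.5% to 81.9% against 57.1% to 73.1%.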

How the data were processed

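Bisulfite libraries were sequenced and processed on rn5 by the authors, with methylKit 0.9.2, Bismark 0.13.0 and SAMtools 0.1.19, beside Trim Galore 0.3.7 and FastQC 0.10.1, as listed without roles per the submitters' processing notes. Per the file headers, the deposited files give for each listed cytosine the coverage (a read count) and the percent of C and of T in those reads, which the authors had computed for each library separately. Coverage times percent gave whole methylated read counts for 100% of cytosines.

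Counts of CpG cytosines with at least 10 reads each were summed over tiles of 250 bp, with the reverse-strand cytosine moved to its forward partner. Total coverage was 5.96e+07 to 1.64e+08 per library. PCR duplicates that remain would make counting errors too small. Tile levels were averaged without weights. Distal and reference values were compared per library with two-sided sign-flip permutation tests (100000 resamples), and groups with two-sided exact permutation tests, adjusted by the Benjamini-Hochberg method within each family.

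Single tiles needed 5 libraries per group and a pooled level of 1% to 99%. They were tested with a quasi-binomial logistic model whose dispersion was moderated as in limma 3.58.1 and kept at 1 or above, run in Python 3.11.15. The model was tried on 40000 simulated tiles. Unchanged tiles had an unadjusted p under 0.05 in 5.71% for L-DOPA against lesioned saline and 6.28% for lesioned against unlesioned saline. The share was 7.07% for L-DOPA against unlesioned saline. False calls after adjustment were 12, 2 and 19 in that order. In the L-DOPA group 200 tiles of intermediate level had been changed by 1 fixed size. Of these, 84.5% were called against lesioned and 79.5% against unlesioned saline. All simulated tiles had 1 common dispersion, and the shares of unchanged tiles exceeded the 3.83%, 3.42% and 6.25% of all real tiles. The simulation therefore does not match these data, and its shares do not give the power at distal tiles. No library was dropped from the main tests. Tiles were named by rule: the 3 smallest p per comparison and direction, the last tile of each chromosome, the 3 with most CpGs per level class, the 3 with the largest SD, and the longest runs. The members, this rule and the lists were chosen with earlier results of these data known, and the bins of distance, classes of CpG number and tests of single chromosome ends were added after values were seen. Alternatives covered coverage, window, matching, tile size, level, test, library series, left-out libraries and replicate pairing.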

Additional observations from a re-analysis of the deposited data

Results flagged for a closer look

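At the distal ends of chromosomes 1 and 15, lesioned minus unlesioned saline differed from that at the reference by -0.517 and -0.470 points (exact permutation adjusted p = 0.04 for each, n = 8 and 6). The exact permutation adjusted p was 0.16 for both with the reference from the same chromosome and 0.963 in series 2 alone. Both calls were lost on leaving out any 1 of 12 of the 14 libraries compared. With fewer libraries the exact test has fewer arrangements, so neither this loss nor series 2 alone can decide whether the calls hold. On leaving out any 1 library the differences stayed at -0.565 to -0.453 points for chromosome 1 and -0.547 to -0.383 points for chromosome 15.

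Within groups, 117 sets of library values were examined for a lowest or highest value far from the rest by Dixon's criterion, and 10 exceeded it. About 5.85 would be expected if the sets were independent and normally distributed. They are not independent, since they share libraries, and 99 are tiles named by rule, some for their large SD. The 2 numbers therefore cannot be set against each other as a test. L-DOPA replicate 7 had a distal minus reference share of tiles over 80% of -2.52 points, with the next at -1.96 points. Lesioned saline replicate 6 had a distal minus reference spread of -0.0930 points, with the next at 0.0109 points. Unlesioned saline replicate 1, whose reads are concentrated in CpG-dense tiles, was low at 2 variable tiles, with 25% at chr19:71254251-71254500 (next 65.7%) and 31.9% at chr11:91236001-91236250 (next 58.3%). Unlesioned saline replicate 4 was low at 2 CpG-dense methylated tiles, with 69.7% at chr5:174850501-174850750 (next 79.2%) and 78.9% at chr15:114554001-114554250 (next 83.0%).

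The other 4 were high values at nearly unmethylated tiles. Lesioned saline replicate 7 had 2.52% at chr15:112296751-112297000 and L-DOPA replicate 7 had 4.25% at chr5:176082001-176082250. Unlesioned saline replicate 5 had 1.65% at chr17:87782001-87782250, and L-DOPA replicate 3 had 2.07% at chr10:110055501-110055750.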

How the results depend on the processing

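Of the values under alternative settings for the main results, 183 kept direction and call, 16 reversed, 1 weakened, 6 strengthened and 8 counts or densities moved. Fits that left out 1 library are not in this tally. The 183 include counts of called tiles that stayed at 0 and group differences that passed in no setting, so they do not measure how firm the distal level is. Distal minus reference level was 0.548 points at 20 reads per cytosine, -6.26 with a 2 Mb and 3.40 with a 10 Mb window. It was -0.0446 with the reference from the same chromosome, -0.779 unmatched and 0.0711 from CpG percents. With tiles of 1000 bp it was -0.153 and without the 3 libraries with concentrated reads 0.0815. The share under 20% was 6.76 points higher than the reference with 2 Mb, and that over 80% 1.504 points higher with 10 Mb. The spread difference was -0.00812 at 20 reads, -0.0199 with 2 Mb, 0.0573 with 10 Mb, -0.0225 unmatched, -0.0243 with tiles of 1000 bp and 0.0349 without the 3 libraries. Reads per tile differed by -0.000338 (log2) with 2 Mb and 0.0138 unmatched. Density was 55.8 tiles per Mb at 20 reads, 47.9 with 2 Mb (below the 51.0 of the rest), 89.6 with 10 Mb and 59.4 with tiles of 1000 bp. The windows hold different tiles, and in other settings the cause was not tested.

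Between groups, distal L-DOPA minus lesioned saline was 0.595 points without the 3 libraries, and lesioned minus unlesioned saline 0.184 in series 2. Relative to the reference, L-DOPA minus lesioned saline was 0.0255 with 2 Mb, 0.0604 without the 3 libraries and 0.0100 in series 1. Leaving out 1 library gave 0.0294 to 0.0626 points for distal minus reference level, -0.995 to 0.120 for distal lesioned minus unlesioned saline, -1.08 to -0.127 for L-DOPA minus lesioned saline, -1.75 to -0.350 for L-DOPA minus unlesioned saline and -0.0780 to 0.0251 for L-DOPA minus lesioned saline relative to the reference. Chromosome ends past the threshold for lesioned against unlesioned saline were 0 in series 2, 0 with the reference from the same chromosome, and 0 to 2 on leaving out 1 library. Tiles of the whole genome past the threshold were, without the 3 libraries, 1 for the lesion alone and 1 for lesion with L-DOPA, each against unlesioned. For the latter, 0 to 2 tiles passed on leaving out 1 library. None of them was distal, and distal tiles past the threshold were 0 under each setting run. The share of distal tiles at unadjusted p was 7.502% for lesioned against unlesioned saline without the 3 libraries (6.69% of all tiles), and up to 10.6% without unlesioned saline replicate 1 for L-DOPA against unlesioned saline (9.45% of all tiles).

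Same-numbered libraries did not deviate together (correlations over 0.1 in 3 of 7, 2 of 6 and 2 of 6 pairs). With a replicate block, L-DOPA minus lesioned saline was -0.716, lesioned minus unlesioned saline -0.359 and L-DOPA minus unlesioned saline -0.350 points at distal tiles, and 0 tiles were called in each comparison. These and the differences relative to the reference kept their side of the threshold, and the single chromosome ends were not run with the block. The part of depth (a distal median of 154 to 422 reads per tile and library) in the absence of calls was not tested.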

Other observations

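Methylation stayed above the CpG-matched reference beyond the distal window and returned toward it farther in. Tiles 5 to 10 Mb from the end averaged 52.7% ± 2.06 (SD, n = 21), 5.60 ± 0.308 points above the reference, at 102.24 tiles per Mb. From 17 to 18 Mb the difference was 0.235 points and from 18 to 19 Mb 0.0517 points, and from 19 to 20 Mb it was 2.91 points. The windows of 10 Mb and 2 Mb thus gave opposite differences from the reference.

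The opposite tips, within the first 5 Mb of listed positions, were sparser and close to the reference. They held 3399 tiles, or 33.99 per Mb, with 7.02 CpGs per tile. Their level was 43.2% ± 1.42 (SD, n = 21) against 43.6% in CpG-matched tiles, a difference of -0.444 ± 0.222 points that was below 0 in 20 of 21 libraries. The difference between both kinds of tip was not tested.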
